A study of Mus musculus with 6 samples.

Results

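The genes described here were 3 Wnt ligands (Wnt3, Wnt5a and Wnt5b), 5 secreted Wnt inhibitors (Sfrp1, Sfrp2, Dkk2, Dkk3 and Wif1) and the feedback inhibitor Axin2. They were chosen by name and are 9 of the 52636 genes in the count tables. Each was followed across the 8 cell types of the deposited annotation, its 9 fibroblast sub-clusters and the Dram2 genotype. The choroid with its retinal pigment epithelium (RPE) was taken from male C57BL/6J mice of 12 to 16 months, dissociated, kept in culture for a week and profiled by droplet-based single-cell RNA sequencing of transcript 3′ ends. There were 3 samples from Dram2 wt/wt mice and 3 from Dram2 ko/ko mice, which lack Dram2 in every tissue. Dram2 encodes a lysosomal membrane protein that has been tied to autophagy, and the comparison asked what its loss does to cells of the RPE and choroid. The Dram2 ko/ko replicate 3 sample was the only sample of batch 2, so its batch and its own features cannot be told apart, and the sources used here do not say whether a sample pools animals.

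Wnt proteins are secreted lipid-modified ligands that bind Frizzled receptors, either with an LRP co-receptor to stabilise β-catenin or through routes that do not need β-catenin. Secreted inhibitors act at different points of this step: SFRP proteins and WIF1 bind the ligands themselves, whereas Dickkopf proteins such as DKK2 bind the LRP co-receptor. In the eye, Wnt signalling takes part in specifying the RPE during development and in shaping the vessels behind it, and the mesenchyme around the optic cup is known as a source of Dkk2.

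All levels below are unique molecular identifiers (UMIs, which count captured transcripts) of a gene, summed over the cells of a group in 1 sample and given per 1000000 UMIs of that group (CPM). Because each transcript is counted from its 3′ end, CPM needs no length correction, but levels are compared here within a gene and not between genes. In such a sum, fewer expressing cells and less RNA per cell cannot be told apart. A sum was used where a sample had at least 10 cells of the group. The tables held 25428 cells, between 2140 and 6648 per sample, with 96808998 to 122746184 UMIs per sample. Dram2 itself lay between 33.4 and 39.6 CPM in the wt/wt samples and between 28.3 and 30.7 CPM in the ko/ko samples; 3′ counts need not reach the deleted part of the gene, so this does not check the knockout.

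Several annotated names were checked against marker genes. The cells named Pericyte (308 cells) carried the Schwann cell markers Sox10 at 129 to 219 CPM and Ngfr at 287 to 528 CPM. The pericyte list (Rgs5, Kcnj8, Higd1b, Ndufa4l2, Notch3 and Cspg4) summed there to 173 to 242 CPM, of which Cspg4 alone was 171 to 239, and Kcnj8, Higd1b and Ndufa4l2 had no UMI in any of the 6 samples. The fibroblast list (Col1a1, Col1a2, Pdgfra, Dcn, Lum and Mgp) summed in them to 4576 to 6875 CPM, against 4227 to 5365 CPM in Fibroblast, and the proliferation list (Mki67 and Top2a) to 154 to 572 CPM, against 437 to 548 CPM in Fibroblast proliferating. These cells are therefore called the cells named Pericyte throughout. Cells named Endothelial had Pecam1 at 653 ± 127 CPM (SD, n = 6), and cells named Myeloid had Lyz2 at 10629 ± 4055 CPM (SD, n = 4). Cells named RPE carried the epithelial keratin Krt18 at 710.3 ± 316 CPM (SD, n = 6) but little Rpe65, the visual cycle isomerase, at 0.693 ± 0.617 CPM (SD, n = 6). Of the rest of the RPE list, Otx2 was at 57.5 to 104 CPM, Mitf at 2.84 to 12.4 CPM and Rlbp1 at 2.53 to 9.94 CPM. Krt8 was at 0.422 to 8.77 CPM, Tyrp1 at 0.217 to 0.994 CPM and Best1 at 0 to 0.497 CPM. The name RPE is used below as annotated.

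The RPE cells of replicate 2 of Dram2 wt/wt and of replicate 3 of Dram2 ko/ko stood apart from those of the other 4 samples. RPE cells made up 11.7% and 14.8% of all cells in these samples, against 1.46% to 3.52% elsewhere. Their RPE marker list summed to 504 and 295 CPM, against 868 to 1103 CPM in the other 4. Most of each sum was Krt18, at 420 and 231 CPM against 739 to 976 CPM. Of the 8 RPE markers, 6 were lower in both samples than in any other. Among these, Rpe65 was near the floor, at 0.174 to 0.181 against 0.464 to 1.75 CPM. Their proliferation list summed to 175 and 285 CPM, against 25.1 to 61.5 CPM. The samples are of opposite genotype, and the levels in RPE cells are given below by sample for 7 of the 9 genes, since Wnt3 had 4 UMIs there and Wif1 none.

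The genome around the genes is given first, on build GRCm38. Wnt3 (chr11:103774150-103817957, plus strand) and Axin2 (chr11:108920349-108950783, plus strand) share a chromosome, as do Sfrp2 (chr3:83766321-83774316, plus strand) and Dkk2 (chr3:132085292-132180304, plus strand). Wnt5a lies at chr14:28504750-28527448 on the plus strand, Wnt5b at chr6:119432531-119544347 on the minus strand, Sfrp1 at chr8:23411502-23449632 on the plus strand, Dkk3 at chr7:112116017-112159057 on the minus strand and Wif1 at chr10:121033960-121100650 on the plus strand. The last exon of Sfrp2 is overlapped on the opposite strand by Gm26771, with 61.1% of the words near the Sfrp2 3′ end shared, so reads of the pair are separated by strand only; Gm26771 was at 0 to 0.436 CPM in RPE cells, where Sfrp2 was highest.

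Promoter windows from RefSeq (GRCm38.p6, bases just before the start of a transcript) are shown for Wnt3 and Dkk2, whose levels both peaked in the same fibroblast sub-cluster, for Axin2, the usual readout of β-catenin activity, and for the only window of a listed gene that held a TCF/LEF motif, which belongs to Wnt5b. The motif searched on both strands was CTTTGNN with A or T at each N, and a match is marked in capitals. It was found in 14.8% of all 32851 windows, and in 1 of the 8 windows of the 6 listed genes that the table holds (Wnt5b has 3 windows). Wnt5a, Sfrp1 and Dkk3 had no window.
Wnt3 (chr11:103773925-103774149, plus strand): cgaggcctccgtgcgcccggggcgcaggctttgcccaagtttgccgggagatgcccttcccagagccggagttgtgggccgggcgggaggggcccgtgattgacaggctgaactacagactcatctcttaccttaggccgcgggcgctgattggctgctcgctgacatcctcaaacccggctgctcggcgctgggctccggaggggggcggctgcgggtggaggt
Dkk2 (chr3:132085042-132085291, plus strand): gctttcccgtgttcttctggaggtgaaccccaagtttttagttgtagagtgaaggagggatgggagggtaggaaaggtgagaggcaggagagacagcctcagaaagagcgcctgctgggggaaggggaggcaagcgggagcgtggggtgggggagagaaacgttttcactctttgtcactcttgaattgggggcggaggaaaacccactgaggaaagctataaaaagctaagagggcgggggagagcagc
Wnt5b (chr6:119449387-119449636, minus strand): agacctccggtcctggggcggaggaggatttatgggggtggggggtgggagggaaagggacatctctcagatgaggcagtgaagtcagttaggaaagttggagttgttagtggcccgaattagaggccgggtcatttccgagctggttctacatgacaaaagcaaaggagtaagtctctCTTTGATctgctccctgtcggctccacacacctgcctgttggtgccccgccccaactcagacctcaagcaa
Axin2 (chr11:108920099-108920348, plus strand): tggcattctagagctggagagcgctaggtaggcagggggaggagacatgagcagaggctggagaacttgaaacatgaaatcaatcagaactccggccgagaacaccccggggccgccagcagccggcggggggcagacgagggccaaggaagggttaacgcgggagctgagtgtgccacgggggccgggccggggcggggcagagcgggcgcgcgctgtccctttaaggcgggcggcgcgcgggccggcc

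**Figure D1:**
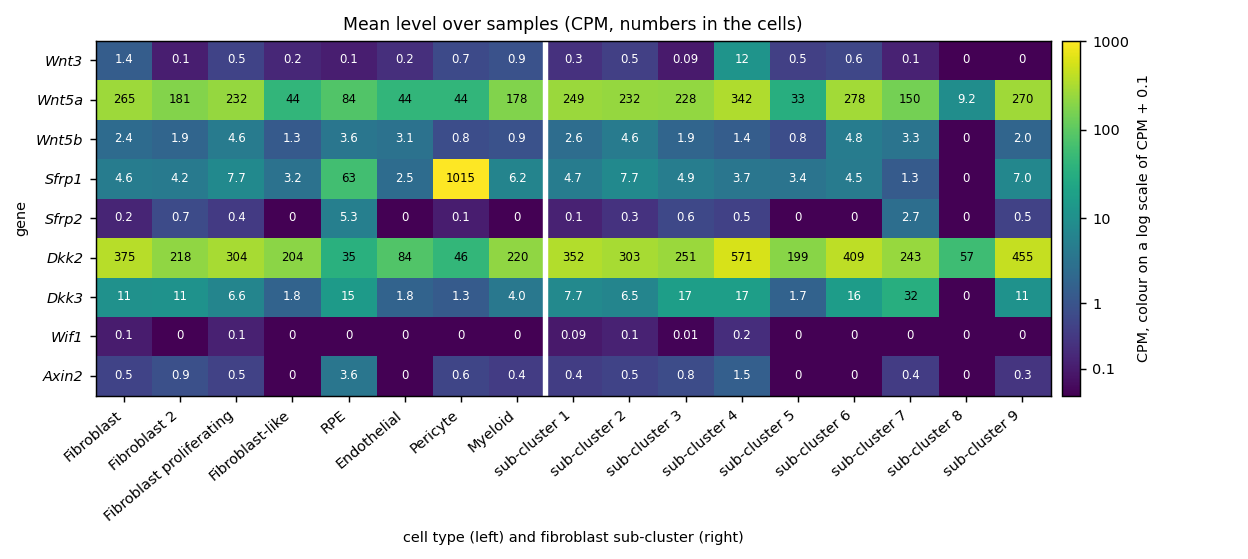
Mean level of the 9 genes in 8 cell types and 9 fibroblast sub-clusters, in CPM averaged over samples with at least 10 cells and coloured on a log scale of CPM + 0.1. Wnt5a and Dkk2 are highest in Fibroblast among the types and in sub-cluster 4 among the sub-clusters. Wnt3 stands out in sub-cluster 4 (mean 11.6 CPM), Sfrp1 in the cells named Pericyte (mean 1015 CPM) and Axin2 in RPE cells (mean 3.61 CPM).

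Wnt3, a ligand best known for β-catenin signalling, was scarce, with 621 UMIs in all cells, and most of them came from few fibroblasts. Sub-cluster 4 held 6.13% of all cells and 70.4% of the Wnt3 UMIs. Its level there was 13.2, 10.4 and 10.5 CPM in Dram2 wt/wt replicates 1 to 3 and 14.7, 11.7 and 9.08 CPM in Dram2 ko/ko replicates 1 to 3. The mean of 11.6 ± 2.07 CPM (SD, n = 6) was far above that of every other sub-cluster, of which sub-cluster 6 came next at 0.614 ± 1.50 CPM (SD, n = 6) from 1 UMI in 1 sample and sub-cluster 2 had 0.470 ± 0.144 CPM (SD, n = 6) from 84 UMIs, and sub-cluster 4 was highest in 6 of 6 samples. Among whole cell types the same transcripts gave Fibroblast 1.39 ± 0.139 CPM (SD, n = 6), which did not differ beyond its neighbour's spread from Myeloid (0.924 ± 1.07 CPM, SD, n = 4). In Fibroblast proliferating, the level was 0.539 ± 0.189 CPM (SD, n = 6). Cell types and sub-clusters were formed from the expression of these genes among others, so their levels are descriptions with no test.

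Wnt5a, the ligand typical of β-catenin-independent signalling and a guide of cell polarity and migration, was most abundant in the types Fibroblast, Fibroblast proliferating and Fibroblast 2, with 156228 UMIs in all cells. In Fibroblast it measured 249.6, 253 and 294 CPM in the wt/wt samples and 269, 259 and 267 CPM in the ko/ko samples. Fibroblast led the order of types in 6 of 6 samples, at 265 ± 15.9 CPM (SD, n = 6), followed by Fibroblast proliferating at 232 ± 15.0 CPM and Fibroblast 2 at 181 ± 8.17 CPM (SD, n = 6 each). Each of these steps was larger than the spread of its neighbours. Fibroblast 2 and Myeloid (178 ± 54.7 CPM, SD, n = 4) did not differ beyond their spread.

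The other types held less Wnt5a. Fibroblast-like cells were at 44.0 ± 14.5 CPM, near the cells named Pericyte at 43.7 ± 17.9 CPM and Endothelial cells at 43.6 ± 27.0 CPM (SD, n = 6 each), and these did not differ beyond their spread. In RPE cells it was 69.6, 104 and 73.0 CPM in the wt/wt samples and 40.7, 67.8 and 150.0 CPM in the ko/ko samples, and the highest values were those of the samples that stood apart. Within the sub-clusters the order was again led by sub-cluster 4, at 342 ± 20.2 CPM (SD, n = 6), above sub-cluster 6 at 278 ± 41.6 CPM (SD, n = 6), and this held in 6 of 6 samples. Sub-cluster 6 cells had a median of 21.0% mitochondrial counts and 4766 UMIs, and 256 of its 477 cells failed the cell filter. The low end was sub-cluster 8, at 9.15 ± 13.0 CPM (SD, n = 4), with a median of 91.1% mitochondrial counts, after sub-cluster 5, at 32.8 ± 8.07 CPM (SD, n = 6). With CPM scaled by TMM factors, sub-cluster 8 was at 55.4 CPM while sub-cluster 5 moved by less than its SD, so this low end depends on the scaling.

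Wnt5b, the close relative of Wnt5a, had 2093 UMIs in all and followed a different order of cell types. In Fibroblast proliferating it was 4.26, 4.46 and 4.08 CPM in the wt/wt samples and 5.04, 4.89 and 4.72 CPM in the ko/ko samples, with a mean of 4.58 ± 0.372 CPM (SD, n = 6). Non-proliferating Fibroblast cells had 2.42 ± 0.317 CPM (SD, n = 6), and no sample's value there reached the lowest value of Fibroblast proliferating. RPE cells were between these types at 3.60 ± 3.16 CPM (SD, n = 6), with a spread that spans both. The RPE values were 0.994, 5.93 and 2.39 CPM in the wt/wt samples and 2.46, 0.929 and 8.87 CPM in the ko/ko samples.

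**Figure D2:**
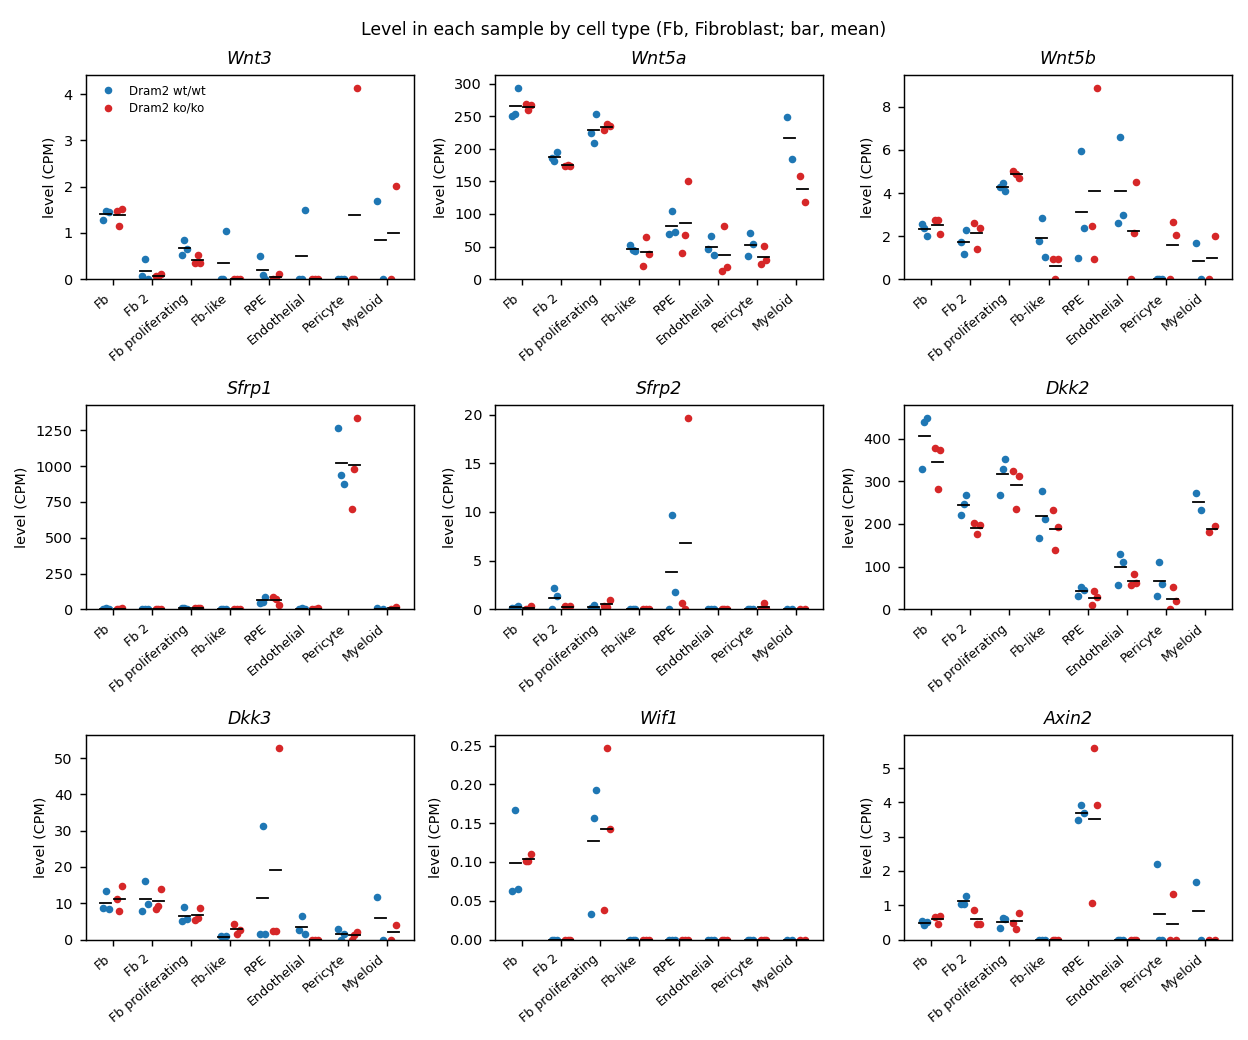
Level of each of the 9 genes by cell type in CPM, with a dot per sample (blue, Dram2 wt/wt; red, Dram2 ko/ko) and a bar at each genotype's mean. The Dkk2 dots of Fibroblast 2 do not overlap between genotypes (222 to 267 CPM against 176 to 201 CPM, voom-limma adjusted p = 0.358, not called). The same held for 11.4% of all genes tested there. The RPE dots of Sfrp2 and Dkk3 split into 2 high samples, 1 of each genotype, and 4 low ones.

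Sfrp1, a soluble protein with a Frizzled-like domain that binds Wnt ligands, was concentrated in the cells named Pericyte. There it measured 1264, 938 and 872 CPM in the wt/wt samples and 701, 979 and 1333 CPM in the ko/ko samples. These cells were 1.21% of all cells and held 50.6% of the 10978 Sfrp1 UMIs. The mean of 1015 ± 240.5 CPM (SD, n = 6) was the highest of all types in 6 of 6 samples.

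To compare shares of cells at equal depth, each cell was thinned to 4000 UMIs. After thinning, 88.2% of the cells named Pericyte had a Sfrp1 UMI, against 97.2% without thinning. The thinned share was 16.3% in RPE cells, 0.862% in Myeloid and 0% in Endothelial cells, the types taken as the level of free RNA. As the marker check above shows, the cells with this Sfrp1 level carried Sox10 and Ngfr.

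RPE cells came next in the order for Sfrp1, at 62.7 ± 22.1 CPM (SD, n = 6), well above the 7.74 ± 1.48 CPM (SD, n = 6) of Fibroblast proliferating. The RPE values were 45.7, 53.5 and 86.3 CPM in the wt/wt samples and 86.0, 72.0 and 32.9 CPM in the ko/ko samples. Unlike Wnt5a, Sfrp1 was not raised in the samples that stood apart, whose values of 53.5 and 32.9 CPM lay low in the range. The fibroblast types were at 4.65 ± 1.14 CPM in Fibroblast and 4.21 ± 0.575 CPM in Fibroblast 2 (SD, n = 6 each).

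Sfrp2, of the same family, was almost silent in fibroblasts and was found mainly in the RPE cells of the samples that stood apart. Of its 609 UMIs, 73.2% came from RPE cells, where the wt/wt samples held 0, 111 and 8 of them and the ko/ko samples 2, 0 and 325. In CPM these were 0, 9.68 and 1.74 in the wt/wt samples and 0.702, 0 and 19.6 in the ko/ko samples. Among thinned RPE cells, a mean of 1.54% had a Sfrp2 UMI, against 4.42% without thinning. Endothelial cells had no Sfrp2 UMI, which allows up to 0.835 CPM.

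Dkk2, which binds the LRP co-receptors, had 210203 UMIs in all, 65.4% of them in Fibroblast cells. In Fibroblast it measured 329.6, 438 and 448 CPM in the wt/wt samples and 378, 281 and 373 CPM in the ko/ko samples. The mean of 375 ± 63.4 CPM (SD, n = 6) was above that of Fibroblast proliferating, 304 ± 43.4 CPM (SD, n = 6), by more than the spread. Fibroblast was the highest type in 6 of 6 samples.

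The cells named Myeloid held Dkk2 at 220.4 ± 40.5 CPM (SD, n = 4) and Fibroblast 2 at 218 ± 33.7 CPM (SD, n = 6), and these did not differ beyond their spread. The fibroblast list summed in Myeloid to 568 to 4494 CPM, and the part of fibroblast RNA in the Myeloid levels of Wnt5a and Dkk2 was not tested. In RPE cells Dkk2 was 32.3, 51.6 and 44.6 CPM in the wt/wt samples and 9.12, 43.2 and 29.6 CPM in the ko/ko samples.

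After thinning, 69.0% of Fibroblast cells had a Dkk2 UMI, against 94.3% without thinning, and the thinned share was 38.5% in Myeloid and 16.5% in Endothelial cells. For Wnt5a the thinned shares were 60.1% in Fibroblast, 31.1% in Myeloid, 12.0% in Fibroblast-like and 8.02% in Endothelial cells. The median depth per cell before thinning was 26108 UMIs in Fibroblast, 16550.0 in Myeloid and 9262.5 in Endothelial cells, and none of these types was free of either transcript. Both transcripts were found in 42.8% of Fibroblast cells, against 41.5% from the product of the separate shares, and the share lay above the product in 6 of 6 samples. In RPE cells the share was 3.93% ± 2.15 against a product of 2.31% ± 1.96 (SD, n = 6), again above it in 6 of 6 samples. The thinned Dkk2 share of RPE cells was 9.71%, below the 16.5% of Endothelial cells. The part of fibroblast RNA in these RPE values was not tested. These values are descriptions with no test.

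Dkk3, the divergent member of the Dickkopf family, whose action on Wnt signalling is less clear, was found at low level in all fibroblast types and varied with the sample. In RPE cells it measured 1.49, 31.3 and 1.52 CPM in the wt/wt samples and 2.46, 2.32 and 52.6 CPM in the ko/ko samples. In Fibroblast it was 8.82, 13.3 and 8.44 CPM in the wt/wt samples and 11.1, 7.98 and 14.7 CPM in the ko/ko samples. The same samples, wt/wt replicate 2 and ko/ko replicate 3, held the 2 highest values in Fibroblast, Fibroblast 2 and Fibroblast proliferating as well as in RPE cells. The RPE marker list was also highest in these samples within Fibroblast (10.8 and 7.05 against 5.26 to 6.80 CPM), Fibroblast 2 (10.2 and 6.80 against 4.95 to 6.22 CPM) and Fibroblast proliferating (10.7 and 14.0 against 5.49 to 7.59 CPM), and its part in these Dkk3 levels was not tested.

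The sub-clusters gave Dkk3 another order. Sub-cluster 7 (214 cells) had 27.8, 49.1 and 23.1 CPM in the wt/wt samples and 36.0, 20.8 and 34.7 CPM in the ko/ko samples. Its mean of 31.9 ± 10.4 CPM (SD, n = 6) was above sub-cluster 4, at 17.3 ± 3.58 CPM (SD, n = 6), and it was the highest sub-cluster in 6 of 6 samples. For Wnt5a the same sub-cluster was among the lower ones, at 149.8 ± 31.3 CPM (SD, n = 6).

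Wif1, which binds Wnt ligands through its WIF domain, was close to the limit of detection. All of its 61 UMIs came from Fibroblast (36) and Fibroblast proliferating (25) cells. RPE cells had none among 39650361 UMIs, which allows up to 0.0757 CPM, and the cells named Pericyte had none, which allows up to 0.562 CPM. These limits and the one above cover counting error only. The highest sub-cluster for Wif1 was sub-cluster 4, at 0.232 ± 0.0902 CPM (SD, n = 6), which rests on 9 UMIs.

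Axin2, the scaffold of the β-catenin destruction complex and itself a standard transcriptional target of β-catenin, was highest in RPE cells. There it measured 3.48, 3.92 and 3.70 CPM in the wt/wt samples and 1.05, 5.57 and 3.92 CPM in the ko/ko samples, from 3 to 65 UMIs per sample. The mean of 3.61 ± 1.46 CPM (SD, n = 6) was above that of Fibroblast 2, 0.857 ± 0.333 CPM (SD, n = 6), by more than the spread, and RPE was the highest type in 6 of 6 samples. Axin2 thus had another order of types than Wnt5a, which was highest in Fibroblast.

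The Axin2 level in RPE cells was not raised in the samples that stood apart, both at 3.92 CPM. Endothelial cells had no Axin2 UMI, which allows up to 0.835 CPM. After thinning, 1.92% of RPE cells had an Axin2 UMI, against 7.90% without thinning. Among fibroblasts, sub-cluster 4 had the highest Axin2 level, at 1.52 ± 0.639 CPM (SD, n = 6), above sub-cluster 3 at 0.754 ± 0.233 CPM (SD, n = 6), but it was the highest sub-cluster in 4 of 6 samples.

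**Figure D3:**
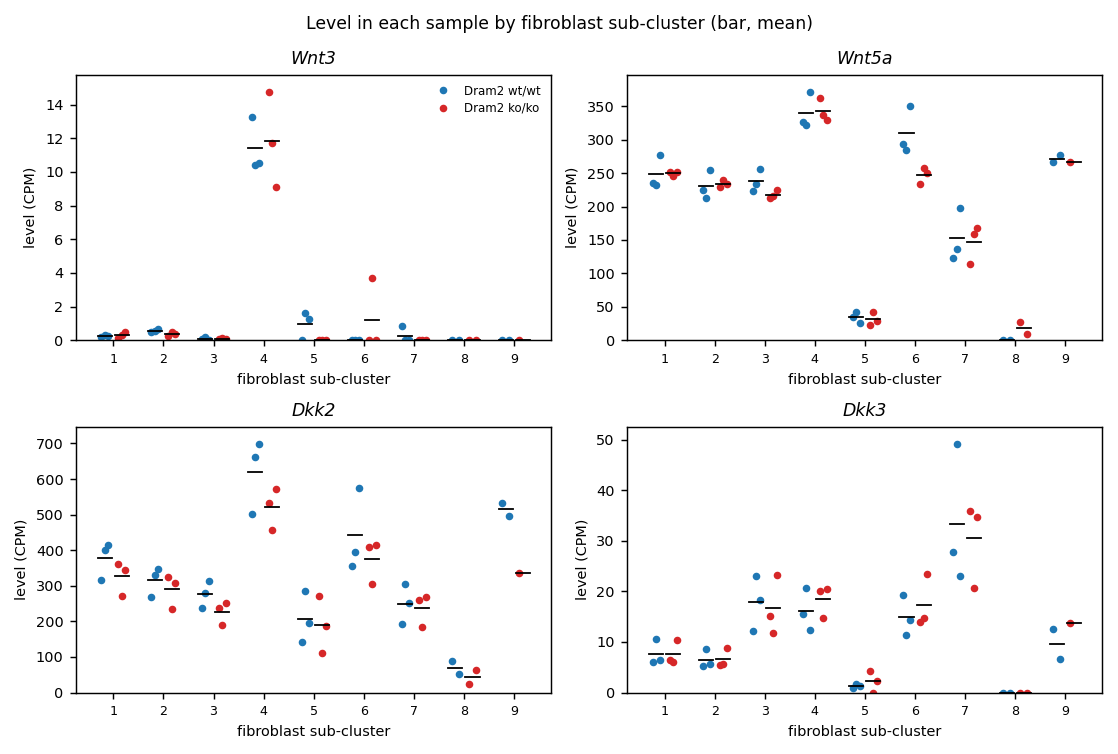
Level of Wnt3, Wnt5a, Dkk2 and Dkk3 in the 9 fibroblast sub-clusters in CPM, with a dot per sample (blue, Dram2 wt/wt; red, Dram2 ko/ko) and a bar at each genotype's mean. Wnt3, Wnt5a and Dkk2 have their highest dots in sub-cluster 4, and Dkk3 has them in sub-cluster 7.

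Sub-cluster 4 was thus where 2 of the 3 ligands, Wnt3 and Wnt5a, and the inhibitors Dkk2 and Wif1 had their highest mean level among fibroblasts. It comprised 1558 cells, 99.0% of them named Fibroblast. Its Dkk2 level was 502, 662 and 698 CPM in the wt/wt samples and 532, 458 and 572 CPM in the ko/ko samples, and the mean of 571 ± 93.2 CPM (SD, n = 6) exceeded the 455 ± 105 CPM (SD, n = 3) of sub-cluster 9. In each sample Dkk2 was higher there than in sub-cluster 1, the largest fibroblast group, at 352 ± 52.6 CPM (SD, n = 6).

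Of the 6 pericyte markers, Rgs5 and Notch3 were high in sub-cluster 4, at 326 ± 53.4 and 48.9 ± 2.81 CPM (SD, n = 6 each), against 33.1 ± 8.55 and 9.32 ± 2.27 CPM (SD, n = 6 each) in sub-cluster 1. The whole pericyte list summed to 369.5 to 504 CPM there, against 102 to 148 CPM in Fibroblast. Most of the sum in sub-cluster 4 was Rgs5. Higd1b had no UMI there, and Kcnj8, Ndufa4l2 and Cspg4 are not given singly, so no cell type is read from this list. The fibroblast list of the same cells summed to 3190.0 to 6330.3 CPM. The photoreceptor list summed there to 5.28 to 21.5 CPM, against 1.61 to 3.02 CPM in Fibroblast, and the myeloid list to 13.4 to 17.2 CPM, against 6.20 to 8.48 CPM. The part of these markers in the levels of sub-cluster 4 was not tested. Wnt3 and Dkk2 shared 41 thinned cells of sub-cluster 4, against 55.5 from the product of their shares, and with 4.76% of cells holding a Wnt3 UMI this difference is not read further.

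The 3 most abundant Wnt ligands outside the list were higher in sub-cluster 4 than in sub-cluster 1. The remaining ligands and the other sub-clusters are not given for this comparison. Wnt2 measured 52.7 ± 8.56 CPM (SD, n = 6) in sub-cluster 4 and 11.8 ± 1.31 CPM in sub-cluster 1. Wnt4 measured 25.1 ± 5.68 CPM against 5.90 ± 2.11 CPM, and Wnt9a 15.1 ± 6.46 CPM against 3.74 ± 0.378 CPM. Wls, the carrier that brings Wnt proteins to the cell surface, did not share this pattern, with 310.0 ± 19.2 CPM in sub-cluster 4 and 316 ± 12.9 CPM in sub-cluster 1. The listed ligand Wnt5b went the other way, at 1.42 ± 0.578 CPM in sub-cluster 4 and 2.57 ± 0.396 CPM in sub-cluster 1. These sums have 6 samples each.

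In RPE cells, 4 of the 9 genes (Wnt5a, Wnt5b, Sfrp2 and Dkk3) were higher in both wt/wt replicate 2 and ko/ko replicate 3 than in any of the other 4 samples, and none was lower in both. Of the 12333 genes that passed the filter on low counts in RPE cells, 27.6% were higher in both and 14.7% lower in both. Of the listed genes, Wnt5a, Sfrp1, Dkk2 and Axin2 passed this filter, and of these only Wnt5a was higher in both. Wnt5b, Sfrp2 and Dkk3 did not pass it, so that share does not cover them. Without these 2 samples the mean RPE level of Dkk3 went from 15.3 to 1.95 CPM, that of Sfrp2 from 5.29 to 0.610 CPM, that of Wnt5b from 3.60 to 1.69 CPM and that of Wnt5a from 84.2 to 62.8 CPM. That of Axin2 went from 3.61 to 3.45 CPM. The genes whose levels were most like those of Sfrp2 over all sums were Pax6, Optc and Mab21l2; these sums include the RPE cells of both samples, so the levels there describe the match and are no separate result.

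Pax6, a transcription factor of the early eye, measured 1.49, 47.4 and 2.83 CPM in the RPE cells of the wt/wt samples and 4.21, 0.464 and 108 CPM in those of the ko/ko samples. Optc, which encodes opticin, a proteoglycan known from the ciliary epithelium and the vitreous, measured 1.49, 44.4 and 0.870 CPM in the wt/wt samples and 1.05, 0 and 107 CPM in the ko/ko samples. The larger number of RPE cells, 539 and 575 against 56 to 152, and the proliferation and RPE marker sums given above moved with these levels. The fibroblast list in the RPE cells summed to 1166 CPM in wt/wt replicate 2, its highest value, and to 519.6 CPM in ko/ko replicate 3, against 344 to 662 CPM in the other 4 samples. Of markers of other cell types, 1 of 6 fibroblast genes (Col1a1, 171 to 286 against 101 to 163 CPM), 2 of 6 pericyte, 1 of 4 endothelial and 2 of 3 photoreceptor genes were also higher in both samples. So was the Schwann cell gene S100b (0.785 to 1.27 against 0.435 to 0.702 CPM), while Sox10 and the melanocyte gene Mlana were lower in both. The part of these in the result was not tested.

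**Figure D4:**
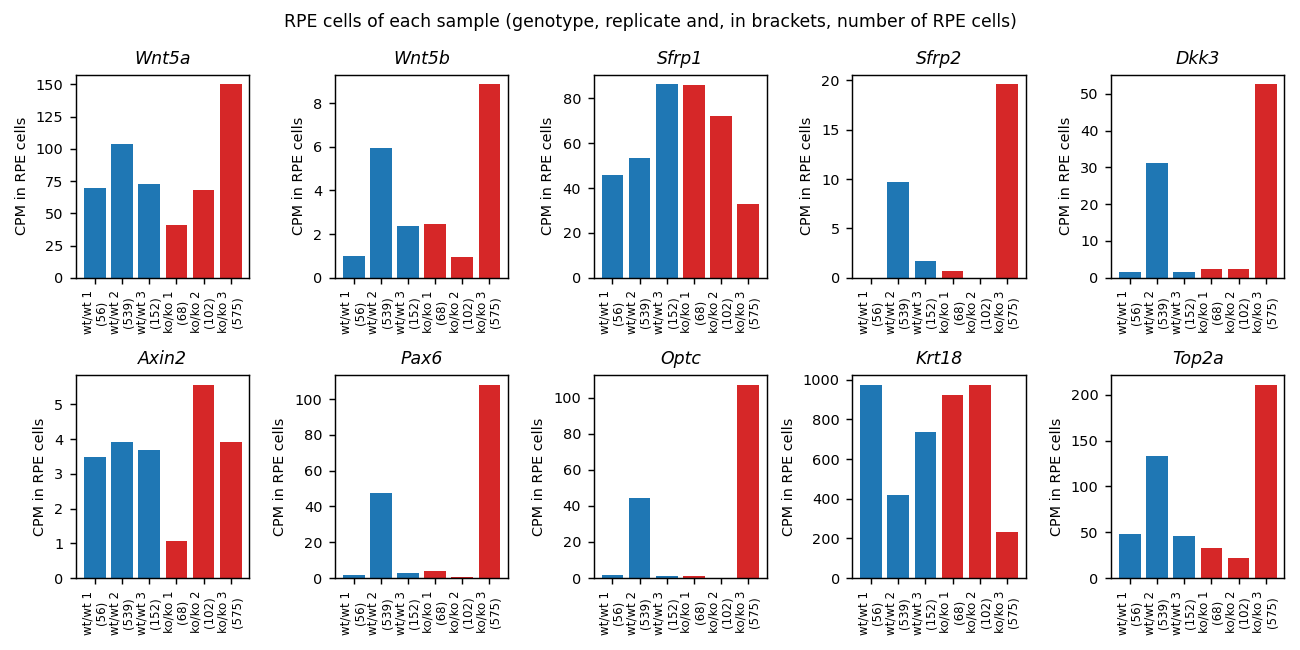
Level in RPE cells of 6 of the genes and of Pax6, Optc, Krt18 and Top2a, in CPM with a bar per sample (blue, Dram2 wt/wt; red, Dram2 ko/ko), with the number of RPE cells per sample. The bars of Sfrp2, Dkk3, Pax6 and Optc are tall in wt/wt replicate 2 and ko/ko replicate 3 alone, Krt18 is lowest in these samples (420.2 and 231 CPM), and Axin2 is at 3.92 CPM in both.

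The effect of Dram2 loss was tested on summed counts with voom-limma and Benjamini-Hochberg adjustment over all genes, at an adjusted p under 0.05. None of the 9 genes was called in any of the comparisons, nor by edgeR's quasi-likelihood test or, where it was run, DESeq2. In whole samples none of them had an unadjusted p under 0.05, which 7.01% of all genes tested there had. In sums over whole samples, 0% of the 22580 genes tested were called, and the 9 genes had log2 fold changes (ko/ko against wt/wt) between -0.25 and 0.26. For all 9 the values of the genotypes overlapped, while they did not overlap for 11.5% of all genes tested there. With only 9 genes, neither absence is read as a result about them.

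Dkk2 had the lowest adjusted p of the 9 genes in whole samples. Its whole-sample level was 286, 350.4 and 392 CPM in the wt/wt samples and 319, 245 and 287 CPM in the ko/ko samples. On the log2 scale it differed by -0.25 with an SE of 0.130 (voom-limma adjusted p = 0.839). Wnt5a had 225, 218 and 265 CPM in the wt/wt samples and 228, 233 and 229 CPM in the ko/ko samples. Its log2 difference was -0.013 with an SE of 0.0976 (voom-limma adjusted p = 0.993). The changes of Dkk2 and Wnt5a were not tested against each other.

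The remaining whole-sample values were no clearer. Wnt3 had a log2 fold change of -0.25 (SE 0.181) and Wnt5b of 0.26 (SE 0.146). For the inhibitors it was -0.10 for Sfrp1 (SE 0.257), 0.23 for Sfrp2 (SE 1.31), 0.23 for Dkk3 (SE 0.359) and 0.16 for Wif1 (SE 0.466), and for Axin2 it was 0.040 (SE 0.307). Sfrp2 and Dkk3, with wide errors, were highest in wt/wt replicate 2 and ko/ko replicate 3, where RPE cells gave 10.2% and 15.0% of the UMIs. With the RPE cells left out, the whole-sample level of ko/ko replicate 3 went from 3.38 to 0.512 CPM for Sfrp2 and from 18.5 to 12.5 CPM for Dkk3, and that of wt/wt replicate 2 from 1.31 to 0.366 CPM and from 13.8 to 11.8 CPM. Without ko/ko replicate 3 the log2 difference turned to -1.31 for Sfrp2, -0.18 for Dkk3 and -0.30 for Axin2.

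Within cell types, the genes were tested 34 times over 8 types, each where it passed the filter on low counts, and none was called. Of all genes tested, 0.624% were called in Fibroblast proliferating, 0.222% in Fibroblast 2, 0.0296% in Myeloid, 0.0118% in the cells named Pericyte and 0.00503% in Fibroblast, and 0% were called in the Fibroblast-like, RPE and Endothelial cells. Of the 34 tests, 3 had an unadjusted p under 0.05, which 4.65% to 7.18% of all genes had over the 8 types. Genotypes did not overlap in 7 tests, with ko/ko lower in 6 and higher in 1. Among all genes tested, the genotypes did not overlap for 7.57% to 11.6% in the types with 3 samples per genotype. In Myeloid, with 2 per genotype, the share was 33.7%, and Myeloid gave 2 of the 7. Among all genes that did not overlap, ko/ko was lower more often than higher in each of the 8 types.

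Fibroblast 2 held 3 of the listed genes' tests without overlap, from 6 genes tested there, beside 11.4% of all genes. Its Dkk2 level was 222, 247 and 267 CPM in the wt/wt samples and 201, 176 and 197 CPM in the ko/ko samples, so that each wt/wt sample was above each ko/ko sample. On the log2 scale ko/ko differed by -0.34 with an SE of 0.0989 (voom-limma adjusted p = 0.358). Axin2 measured 1.04, 1.04 and 1.27 CPM in the wt/wt samples and 0.869, 0.468 and 0.454 CPM in the ko/ko samples (log2 fold change -0.87, SE 0.385, voom-limma adjusted p = 0.799). Wnt5a was between 181 and 194 CPM in the wt/wt samples and between 174 and 176 CPM in the ko/ko samples, and its log2 fold change of -0.089 (SE 0.0861) was about the size of its error.

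In Fibroblast proliferating, Wnt3 measured 0.525, 0.847 and 0.643 CPM in the wt/wt samples and 0.339, 0.523 and 0.357 CPM in the ko/ko samples. The groups were apart by a narrow margin, and the log2 difference was -0.69 with an SE of 0.323 (voom-limma adjusted p = 0.789). Wnt5b, given by sample above, was the only gene with each ko/ko sample above each wt/wt sample there, and its log2 difference was 0.19 with an SE of 0.133 (voom-limma adjusted p = 0.972). The Myeloid values of Wnt5a and Dkk2 also did not overlap, with log2 fold changes of -0.67 (SE 0.270) and -0.37 (SE 0.238), but only 2 samples per genotype had enough of these cells.

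**Figure D5:**
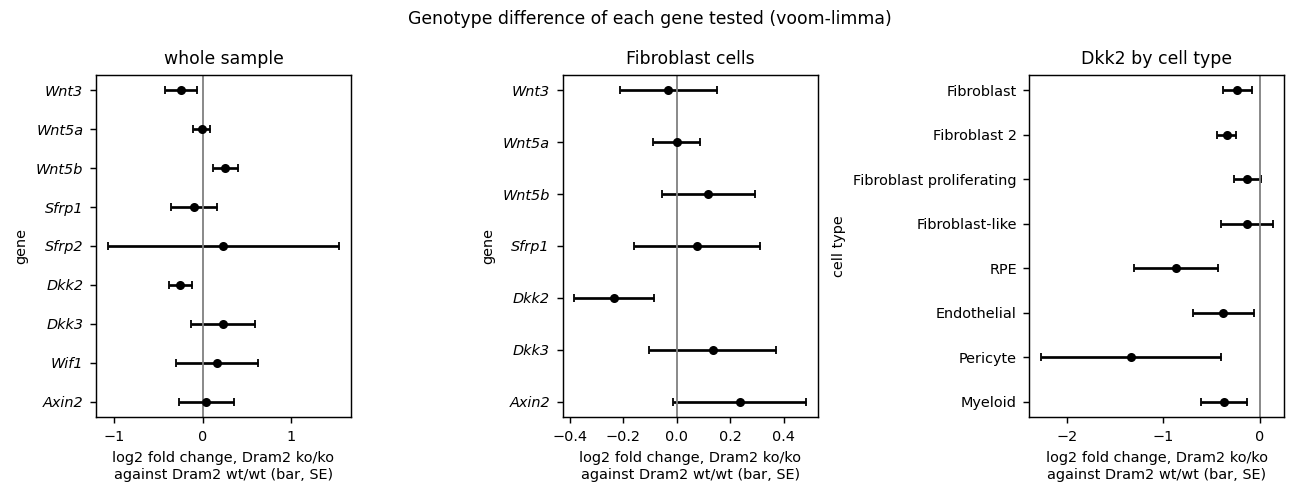
Log2 fold change of Dram2 ko/ko against Dram2 wt/wt with its standard error from voom-limma, for the genes in whole samples, for the genes in Fibroblast, and for Dkk2 by cell type. All 8 Dkk2 estimates lie below 0, between -0.13 and -1.34, and none passed the threshold after adjustment. They come from the same samples and are not independent.

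The Dkk2 estimate was negative in 8 of 8 cell types, which come from the same 6 samples and are not independent. The share of all genes with the same sign in every type was not computed, so this count is not read further. The part of fibroblast RNA in the Dkk2 levels of the other types was not tested. Leaving out 1 sample turned it to 0.0072 in Fibroblast proliferating (without ko/ko replicate 2) and to as much as 0.16 in Fibroblast-like. From the lowest, the estimate was -1.34 (SE 0.936) in the cells named Pericyte, -0.87 (SE 0.431) in RPE cells and -0.38 (SE 0.315) in Endothelial cells. It was -0.23 in Fibroblast, -0.14 in Fibroblast-like and -0.13 in Fibroblast proliferating, besides the values given above. The estimate in the cells named Pericyte, where ko/ko replicate 1 had no Dkk2 UMI, lay between -3.44 and -0.44 with 1 sample left out, and that in RPE cells between -1.18 and -0.40.

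In the sub-clusters the genes were tested 33 times over 7 sub-clusters, none was called and none had an unadjusted p under 0.05. Such a p was reached by 4.63% to 7.48% of all genes tested in these sub-clusters. The share of all genes called was 0.32% in sub-cluster 1, 0.55% in sub-cluster 2, 0.00634% in sub-cluster 3, 0.722% in sub-cluster 4, 0% in sub-cluster 5, 0% in sub-cluster 6 and 0.402% in sub-cluster 7. Sub-cluster 8 was tested for 110 genes, with 0% called and none of the listed genes among them. Genotypes did not overlap in 3 tests, namely Wnt5b in sub-cluster 2 (log2 fold change 0.19), Wnt3 in sub-cluster 2 (-0.61) and Wnt5a in sub-cluster 6 (-0.33), beside 9.39% to 13.9% of all genes tested in these sub-clusters. Sub-cluster 2 is 98.7% Fibroblast proliferating, so its Wnt3 and Wnt5b values are largely those already given.

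Whether the genotype effect differed between Fibroblast and another type was tested 52 times for the 9 genes with the type-by-genotype term, and none was called. The share of all genes called was 0% against Fibroblast 2, 0.0107% against Fibroblast proliferating, and 0% each against Fibroblast-like, RPE, Endothelial, the cells named Pericyte and Myeloid. Of the 52 tests, 7 had an unadjusted p under 0.05, beside 4.13% of all such tests over all genes. Of the 52, 25 were of genes that did not pass the filter on low counts in the other type itself, and these gave 4 of the 7. The lowest adjusted p from voom-limma among these 25 was 0.644, for Dkk3 in Endothelial cells, which rests on 7 UMIs in the wt/wt samples and none in the ko/ko samples. Among the other 27 tests the lowest was 0.970.

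The genes most like each listed gene were found from the Pearson r of log2(CPM + 1) over the 46 sums of samples and cell types, which share samples and depth, among 11152 genes. Wnt5a was most like Plxdc2 (r = 0.939), Vcan (0.919) and Csf1 (0.910), and Dkk2 was most like Gstm2 (0.922), Cdo1 (0.920) and Fbln5 (0.920). Vcan encodes the matrix proteoglycan versican, Csf1 the macrophage growth factor, and Fbln5 an elastic fibre protein. The r between Wnt5a and Dkk2 themselves was 0.640.

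Sfrp1 was most like Sema4f (0.960), Itgb8 (0.947) and Sox6 (0.945). Sfrp2 was most like Pax6 (0.848), Optc (0.763) and Mab21l2 (0.730), and Axin2 was most like Fam213a (0.818), Gldc (0.800) and Igf2bp1 (0.781). Dkk3 was most like Usp47 (0.763), Gas1 (0.759) and Loxl1 (0.750). The remaining genes matched Coil (0.632) and Ints1 (0.590) for Wnt3, Kctd5 (0.644), Vopp1 (0.620) and Areg (0.619) for Wnt5b, and Ndnf (0.742), Zc2hc1a (0.731) and Tcaf1 (0.723) for Wif1.

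Among 76 other genes of the Wnt pathway, 62 were tested in whole samples. None was called there or in any cell type or sub-cluster. Their median log2 fold change in whole samples was -0.027, beside 0.0046 for all genes tested. The lowest adjusted p from voom-limma over all comparisons was 0.164, for the secreted inhibitor Sostdc1 in sub-cluster 4.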

How the data were processed

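The authors prepared 10x Genomics single-cell 3′ libraries and, per the labels, used Cell Ranger 3.1.0 with GRCm38; only exonic reads were counted per the study's methods. The deposited tables hold raw UMI counts per gene and cell, with the authors' cell types and fibroblast sub-clusters as annotation. Ensembl identifiers were matched to symbols for 52403 of 52636 genes. Groups were taken from the labels. Counts were summed per sample and cell group (at least 10 cells) and given as CPM with mean and SD over samples. Genotype effects were fitted with voom-limma (limma 3.58.1, TMM factors and low-count filter from edgeR 4.0.16, R 4.3.3), unpaired, on all samples with enough cells; p-values were adjusted over all genes tested by Benjamini-Hochberg and called under 0.05. Replicates are separate samples, but no source says that they were separate animals, so p-values measure the spread between these samples. Shares of cells used cells thinned without replacement to 4000 UMIs, which left out 219 wt/wt and 333 ko/ko cells. No doublet caller was run; leaving out the 5% of cells with the most UMIs was tried instead. Shared cell barcodes between libraries could not be counted from the deposited identifiers. Fits were tested on simulated data. Named genes were all 9 genes, any other Wnt pathway gene called, the 3 most abundant other genes of each pathway role and the 3 genes most like each listed gene; some items are not reported here. The listed genes and pathway lists were chosen with earlier results of these data known. Alternatives were edgeR's quasi-likelihood test, DESeq2 1.42.0, no low-count filter, cell filters (over 500 genes and under 20% mitochondrial counts), batch as covariate, a replicate block, and leaving out each sample. Levels were also computed with TMM-scaled CPM and pooled over samples. Values were computed with python 3.11.15, numpy 2.4.6, pandas 2.3.3 and scipy 1.17.1.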

Additional observations from a re-analysis of the deposited data

How the results depend on the processing

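None of the 9 genes was called for genotype under any alternative that could be fitted. The log2 fold changes followed here changed sign in 19 of 312 values with other settings and in 38 of 203 with 1 sample left out. Those that changed sign were all small or wide, and the cause was not tested. The counts cover every tested gene in whole samples, Fibroblast and RPE only. For the other cell types and sub-cluster 4 they cover chosen genes, among them those whose genotypes did not overlap in a cell type. The other sub-clusters are left out, so the counts do not describe all fits. With batch as a covariate, the whole-sample values were -1.31 for Sfrp2, -0.18 for Dkk3 and -0.30 for Axin2, the Fibroblast values were -0.0083 for Wnt5a, -0.14 for Sfrp1 and -0.087 for Dkk3, and Sfrp1 in RPE was 0.43; this fit leaves ko/ko replicate 3 to its batch. In Fibroblast, Wnt5a was -0.0051 with edgeR, -0.016 without the low-count filter and -0.013 without the high-UMI cells. In RPE, Wnt5a was 0.091 with edgeR, 0.090 with DESeq2, 0.12 without the filter and 0.13 without high-UMI cells, and Sfrp1 was 0.053, 0.076 and 0.040 with edgeR, with DESeq2 and without high-UMI cells. Wnt5a in sub-cluster 4 was -0.017 without the filter. With a replicate block, Axin2 in RPE was 0.0019 and no call changed. Same-numbered samples were not treated as paired. Their deviations correlated at 0.0987, -0.429 and 0.0280, and those of the other pairs at -0.441 to 0.485. With 3 samples per genotype, these values do not settle whether samples were paired.

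With 1 sample left out at a time, whole-sample values ranged from -0.085 to 0.069 for Wnt5a, -0.33 to 0.13 for Sfrp1, -1.31 to 1.25 for Sfrp2, -0.18 to 0.51 for Dkk3, -0.24 to 0.49 for Wif1 and -0.30 to 0.26 for Axin2. In Fibroblast they ranged from -0.085 to 0.091 for Wnt3, -0.032 to 0.082 for Wnt5a, -0.12 to 0.28 for Sfrp1 and -0.066 to 0.37 for Dkk3. In RPE they ranged from -0.60 to 0.36 for Wnt5a, -0.48 to 0.44 for Sfrp1 and -0.59 to 0.11 for Axin2. Dkk2 ranged from -0.24 to 0.0072 in Fibroblast proliferating and -0.39 to 0.16 in Fibroblast-like, Sfrp1 from -0.29 to 0.15 in Pericyte, and in sub-cluster 4 Wnt3 from -0.14 to 0.24 and Wnt5a from -0.042 to 0.076. In Fibroblast 2, Dkk2 stayed between -0.39 and -0.27, with an adjusted p of 0.277 at its lowest.

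Without thinning, 5 of the 9 genes kept the cell type with the highest share of cells (Wnt3, Wnt5b, Dkk2 and Dkk3 did not), and 4 of the 27 genes named as most alike were among the top 3 by Spearman's rho. Counts of all genes called moved more: 0 in whole samples became up to 381 under other settings and up to 242 without 1 sample, 1 in Fibroblast up to 321 and 234, 33 in Fibroblast 2 between 2 and 168 and between 0 and 121, 113 in Fibroblast proliferating between 0 and 320 and between 0 and 290.0, and 99 in sub-cluster 4 between 53 and 210 and between 28 and 168. Some levels moved by more than their SD. With TMM-scaled CPM, Wnt5a was 172 CPM in Fibroblast 2, 207 CPM in Fibroblast proliferating, 300 CPM in sub-cluster 4 and 244 CPM in sub-cluster 9. Dkk2 was then 258 CPM in Fibroblast-like and Wnt5b 4.10 CPM in Fibroblast proliferating. With the cell filter, Dkk3 in sub-cluster 6 was 21.6 CPM. Without high-UMI cells, Wnt3 in Myeloid was 2.08 CPM. The smallest change detectable for each gene was not computed. The standard errors beside the values show the precision.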

Other observations

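Other genes of the Wnt pathway were read by role, as the most abundant of each role outside the 9 genes, with values as mean CPM ± SD over 6 samples unless said. Of the secreted inhibitors, Frzb, a relative of Sfrp1 that binds Wnt ligands, was highest in Fibroblast 2 at 282.5 ± 78.6 CPM, against 150.3 ± 22.6 CPM in Fibroblast and 15.2 ± 7.03 CPM in RPE cells (12.1 ± 3.75 CPM over the 4 samples whose RPE cells did not stand apart). Sostdc1, which binds LRP co-receptors and BMP ligands, was low in Fibroblast 2, at 0.975 ± 0.782 CPM, and highest in Fibroblast proliferating, at 19.1 ± 3.92 CPM. Rspo3, a secreted amplifier of Wnt signalling, was highest in Fibroblast 2 at 73.5 ± 8.40 CPM, against 17.6 ± 1.36 CPM in Fibroblast and 7.88 ± 0.536 CPM in Fibroblast proliferating. Fibroblast 2 thus combined lower Wnt5a and Dkk2 than Fibroblast with higher Frzb and Rspo3. Sfrp4 was at 0.298 ± 0.0791 CPM in Fibroblast.

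Of the receptors, Fzd2 was highest in Fibroblast proliferating at 65.0 ± 5.02 CPM and lowest in Endothelial cells at 8.21 ± 7.57 CPM, Fzd7 was highest in Fibroblast at 39.9 ± 6.15 CPM, and Ryk, a co-receptor with a WIF domain, ranged from 142 ± 35.7 CPM in Endothelial cells to 268 ± 7.55 CPM in Fibroblast proliferating. Wls and Porcn, which serve ligand release, were at 324 ± 12.1 and 3.60 ± 0.168 CPM in Fibroblast. Lgr4, an R-spondin receptor, was at 8.13 ± 0.939 CPM and Znrf3, which removes Frizzled receptors, at 6.39 ± 0.527 CPM in Fibroblast. Kremen1, a Dickkopf receptor, was at 13.3 ± 2.78 CPM in Fibroblast, Tmem88 was highest in Endothelial cells at 51.3 ± 10.8 CPM, and Apcdd1 was at 0.0564 ± 0.0139 CPM in Fibroblast.

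The cells named Pericyte, where Sfrp1 was highest, also had the highest levels of the target genes Nkd2, a feedback inhibitor of the Dishevelled step, at 302 ± 53.2 CPM, and Ccnd1, cyclin D1, at 1343 ± 271 CPM. The proliferation list of these cells summed to 154 to 572 CPM, and its part in these levels was not tested. In Fibroblast these were at 89.7 ± 23.8 and 244 ± 26.9 CPM, and in RPE cells, where Axin2 was highest, at 7.94 ± 5.76 and 414 ± 146 CPM. Over the 4 samples whose RPE cells did not stand apart, Nkd2 was at 5.11 ± 4.17 CPM and Ccnd1 at 328 ± 62.6 CPM. Ccnd1 was lowest in Fibroblast 2, at 18.8 ± 6.14 CPM. Myc was highest in Endothelial cells, at 63.1 ± 14.8 CPM, as was Ctnnb1, which encodes β-catenin, at 553.4 ± 77.9 CPM. The kinase genes Csnk1a1 and Gsk3b were at 446 ± 26.3 and 235 ± 6.52 CPM in Fibroblast. The orders of Axin2, Nkd2 and Ccnd1 over cell types were therefore not alike, and these levels are descriptions with no test.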
